A study of Saccharomyces cerevisiae with 3 samples.

Results

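The TRiC/CCT chaperonin of Saccharomyces cerevisiae is built from the products of 8 genes, TCP1 and CCT2 to CCT8, which were chosen by name and found in the deposited tables by the ORF identifiers YDR212W, YIL142W, YJL014W, YDL143W, YJR064W, YDR188W, YJL111W and YJL008C. They are 8 of the 5293 ORFs listed. The RNA came from BY4741, a haploid laboratory strain of mating type a with auxotrophic marker deletions, grown to mid-log phase in YPD, a rich glucose medium, and was cytoplasmically enriched in every library. One library was made from RNA captured on oligo(dT) Dynabeads, magnetic beads that bind poly(A) tails (poly(A)-selected), 1 from RNA depleted of rRNA with the RiboMinus probe kit (RiboMinus), and 1 from total RNA with no selection (unselected). Strain and growth were the same in all 3 libraries, and the labels do not say whether they share a culture.

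TRiC is the group II chaperonin of the eukaryotic cytosol. Its paralogous subunits form a pair of stacked rings, each holding 1 copy of every subunit, and close over a folding client as ATP is bound and hydrolysed. Actin and tubulin are its best known clients, prefoldin hands unfolded chains to it, and phosducin-like proteins act with it as cofactors. Every subunit gene is essential in yeast. Since the complex needs its subunits in equal numbers, the mRNA levels of the 8 genes are described here by how close to equal they were in each preparation of the RNA. No protein levels are given here, so these values do not describe the balance of the subunit proteins.

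The sequences below show how the subunits are related and where they differ. They are the coding strand of the part of each ORF that encodes the ATP-binding motif GDGTT of chaperonins, with the 15 bases of the motif in capitals and 15 bases on each side, read from the R64 (sacCer3) genome. TCP1 lies at chrIV:887499-887543, CCT2 at chrIX:83551-83595, CCT3 at chrX:407810-407854, CCT4 at chrIV:200248-200292, CCT5 at chrX:556244-556288, CCT6 at chrIV:836667-836711 and CCT7 at chrX:208144-208188, all on the plus strand. CCT8 lies at chrX:421346-421390 on the minus strand.
TCP1: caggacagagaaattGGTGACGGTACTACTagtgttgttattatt
CCT2: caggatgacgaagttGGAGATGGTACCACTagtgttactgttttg
CCT3: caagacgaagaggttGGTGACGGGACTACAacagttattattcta
CCT4: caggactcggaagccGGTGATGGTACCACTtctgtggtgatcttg
CCT5: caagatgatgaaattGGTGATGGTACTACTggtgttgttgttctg
CCT6: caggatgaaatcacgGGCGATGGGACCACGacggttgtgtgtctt
CCT7: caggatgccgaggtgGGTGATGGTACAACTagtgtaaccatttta
CCT8: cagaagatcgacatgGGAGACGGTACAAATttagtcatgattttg

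In 7 of the 8 subunits the motif ends in threonine, and in CCT8 it ends in asparagine. The 8 genes use 8 different codings of the motif, which share 9 of its 15 bases. The proteins have 527 to 568 residues. Their identity over aligned residues ran from 27.2% between CCT2 and CCT8 to 37.0% between CCT4 and CCT5, with a median of 29.9% over the 28 pairs, and from 23.0% to 28.0% with HSP60, the mitochondrial chaperonin. At the level of the mRNA they are distinct: none of the 30-base stretches of any subunit ORF occurs in another listed ORF on either strand, and no annotated ORF overlaps any of them. The sources used here do not give the read length or the mismatches allowed in mapping.

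All 8 ORFs are a single coding exon, and coding length without the stop codon spans only 1581 nt (CCT2) to 1704 nt (CCT8). CCT3 (chromosome X, 407558 to 409162) and CCT8 (chromosome X, 419957 to 421663) lie 10794 bases apart on opposite strands. CCT5 (555914 to 557602) and CCT7 (207877 to 209529) are also on chromosome X. TCP1 (887232 to 888911), CCT4 (199996 to 201582) and CCT6 (836421 to 838061) are on chromosome IV, and CCT2 (83302 to 84885) is on chromosome IX. CCT6 stands apart in base composition, with 48.0% GC, above 97.0% of the ORFs kept, while the other 7 had 39.0% to 43.6% against a median ORF of 39.6%. The codon adaptation index, which scores how closely codons follow those of the 50 ORFs highest in the unselected library, was lowest in CCT6 at 0.178 and highest in TCP1 at 0.261. The median ORF had 0.155.

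Upstream of the start codons most of the genes share a motif of Abf1, a general regulatory factor that binds many yeast promoters. The motif searched was CGT, then any 6 bases, then TGA, on either strand, in the 250 bases before the start codon and the first 50 of the ORF. It was present in 6 of the 8 windows, all but those of TCP1 and CCT2, and in 15.2% of the 5293 windows of all listed ORFs. Each of the 6 genes had 1 match, between 147 and 200 bases before the start codon. That range was read off after the matches were seen, and 5.57% of all windows held a match starting in it. The matches are printed with 15 bases on each side, on the coding strand, with the fixed bases of the motif in capitals (TCA and ACG where the motif lies on the opposite strand). CCT3 is at chrX:407395-407436, CCT4 at chrIV:199820-199861, CCT5 at chrX:555739-555780, CCT6 at chrIV:836206-836247 and CCT7 at chrX:207683-207724, all on the plus strand, and CCT8 at chrX:421784-421825 on the minus strand.
CCT3: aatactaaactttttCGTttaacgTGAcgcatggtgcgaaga
CCT4: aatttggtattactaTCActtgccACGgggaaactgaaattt
CCT5: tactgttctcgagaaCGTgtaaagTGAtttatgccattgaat
CCT6: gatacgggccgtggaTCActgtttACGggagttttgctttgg
CCT7: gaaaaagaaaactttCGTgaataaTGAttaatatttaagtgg
CCT8: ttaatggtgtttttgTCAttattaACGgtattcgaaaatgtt

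Other motifs were rarer among the subunit genes. The site of Reb1, another general regulatory factor (TTACCCG), occurred upstream of CCT4 and CCT7, against 7.76% of all windows. The element of Rpn4, the activator of proteasome genes (GGTGGCAAA), occurred upstream of CCT6 and in 1.28% of all windows. Against that 1 of 8 subunit genes, 12 of the 14 genes of the 20S proteasome held the Rpn4 element. The Abf1 motif, at 6 of 8 subunit genes, was present at 3 of 14 genes of the 20S proteasome, 1 of 7 genes of the COPI coat and 2 of 6 genes of prefoldin. Of the heat shock element, bound by Hsf1, the form with TTC, any 2 bases and GAA occurred only upstream of CCT7 (12.9% of all windows), where it overlaps the Abf1 match, and the form with GAA, any 2 bases and TTC was at none of the 8 (12.0%). The stress response element AGGGG was at none of the 8 and in 21.7% of all windows. The TATA box letters TATAAA were in 3 of the 8 windows and in 44.4% of all. All motifs were searched on both strands, and a match is a description of the letters and not a bound site.

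**Figure D1:**
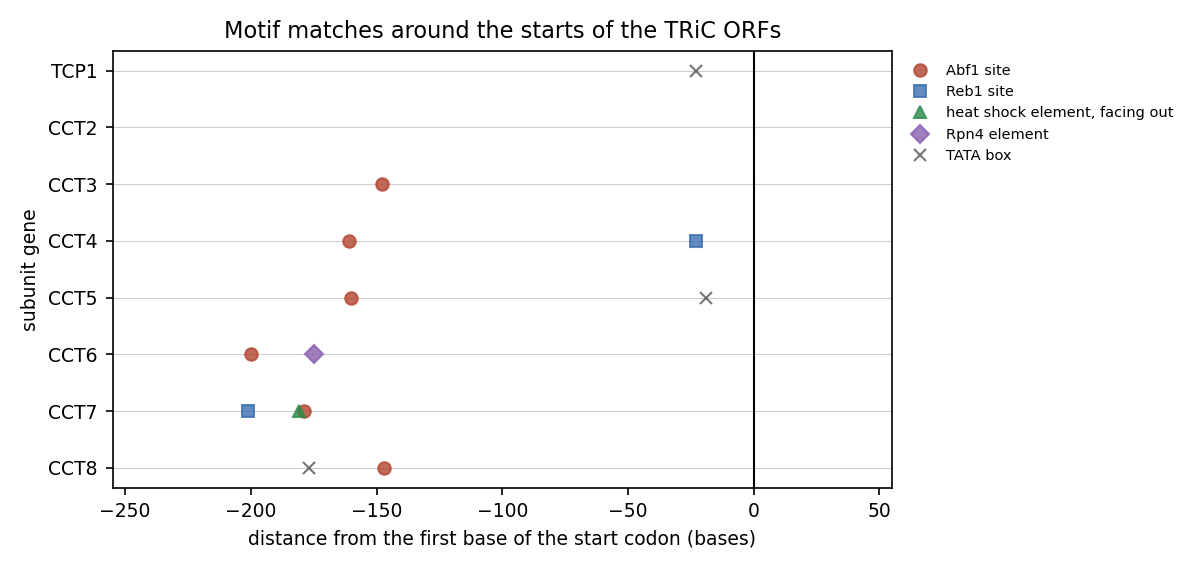
Positions of motif matches on either strand from 250 bases before to 50 bases after the first base of the start codon, for each subunit gene; each symbol is 1 match. The 6 matches of the Abf1 motif lie between 147 and 200 bases before the start codon, and TCP1 and CCT2 have none in this window.

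Levels are in RPKM, reads per kilobase of coding sequence per 1000000 reads, so genes of different length can be set side by side within a library. RPKM does not remove every effect of length or base composition: ratios between libraries still ran with coding length or GC content, as given below. The 3 libraries held 6466579 (poly(A)-selected), 1317635 (RiboMinus) and 4452179 (unselected) reads in the listed ORFs. Those counts were recovered from the spacing of low values. The subunits had 2372 to 3656, 429 to 1629 and 1798 to 2701 reads each. Each preparation has 1 library, so nothing here has a replicate check, no p-value is given, and every interval is a 95% Clopper-Pearson (exact binomial) interval that covers counting error alone. As bulk libraries they give a mean over cells. The mating type in the label was checked with STE2, the alpha-factor receptor of cells of mating type a, at 483, 512 and 429 RPKM in the same order of libraries, and STE3, the receptor of the opposite mating type, at 5.59, 2.15 and 6.53 RPKM.

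The subunit mRNAs were abundant and close to each other in the poly(A)-selected and unselected libraries, and far apart in the RiboMinus library. The median subunit stood at percentile 87.9 of the ORFs kept in the poly(A)-selected library, 92.5 in the RiboMinus library and 91.4 in the unselected library. Together the 8 ORFs took 0.370%, 0.517% and 0.400% of the reads of these libraries, for summed levels of 2261, 3131 and 2438 RPKM.

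TCP1, CCT2, CCT4 and CCT5 are the subunits that bind ATP most readily in yeast. TCP1 had 264 RPKM after poly(A) selection and 488 RPKM after RiboMinus treatment, against 313 RPKM in unselected RNA. CCT2 had 302 RPKM after poly(A) selection and 375 RPKM after RiboMinus treatment, against 286 RPKM in unselected RNA. For both genes the RiboMinus value was the highest of the 3. CCT4, also known as ANC2 from a screen for genes that interact with actin, had 325 RPKM after poly(A) selection and 213 RPKM after RiboMinus treatment, against 300.3 RPKM in unselected RNA. CCT5 had 335 RPKM after poly(A) selection and 733 RPKM after RiboMinus treatment, against 359.8 RPKM in unselected RNA. The RiboMinus value was thus the lowest of the 3 for CCT4 and the highest for CCT5.

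CCT3, CCT6, CCT7 and CCT8 bind ATP less readily. CCT3 had 268 RPKM after poly(A) selection and 203 RPKM after RiboMinus treatment, against 252 RPKM in unselected RNA. CCT6 had 306 RPKM after poly(A) selection and 546 RPKM after RiboMinus treatment, against 369 RPKM in unselected RNA. The RiboMinus value was the lowest of the 3 for CCT3 and the highest for CCT6. CCT7 had 222 RPKM after poly(A) selection and 251 RPKM after RiboMinus treatment, against 262 RPKM in unselected RNA. CCT8 had 238 RPKM after poly(A) selection and 321 RPKM after RiboMinus treatment, against 297 RPKM in unselected RNA. CCT7 had the narrowest range of RPKM over the 3 preparations among these 4 genes, with no correction for shifts between libraries. In log2 ratios to unselected RNA less that of the median ORF, CCT7 had -0.47 (poly(A)-selected) and -0.14 (RiboMinus). CCT3 had -0.15 and -0.39 in that order, so the ranking holds for RPKM alone.

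**Figure D2:**
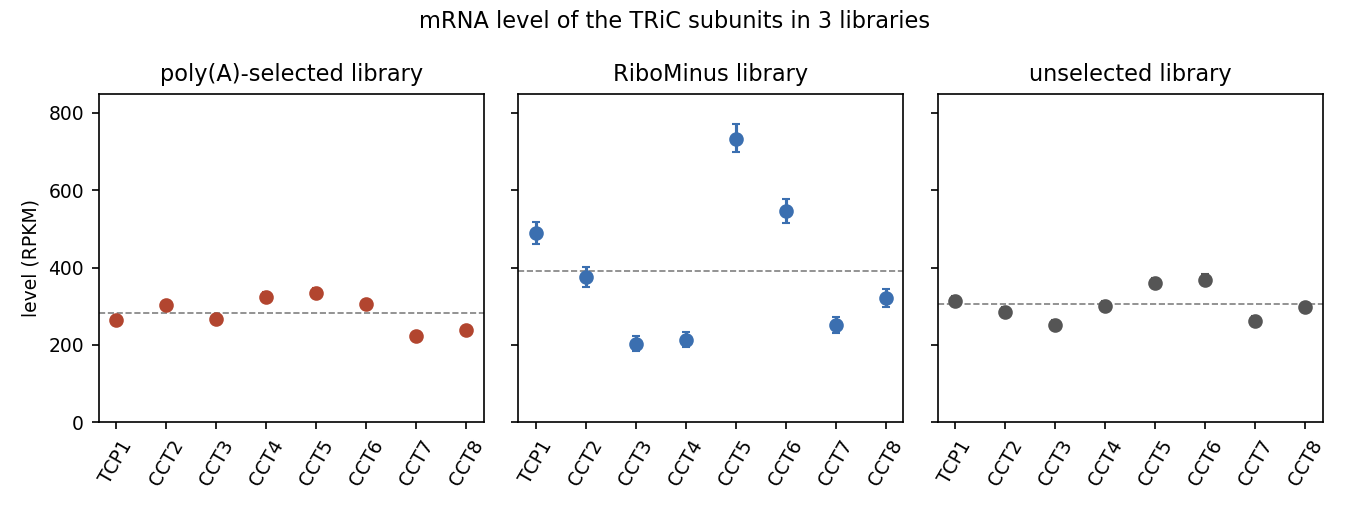
Level in RPKM of each subunit mRNA in each library; points are the deposited values, bars the 95% counting intervals and the dashed line the mean of the 8 subunits. The 8 values lie between 222 and 335 RPKM after poly(A) selection, between 203 and 733 RPKM after RiboMinus treatment and between 252 and 369 RPKM in unselected RNA.

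Equal levels would give every subunit 12.5% of the summed level of the complex. In the poly(A)-selected library the shares ran from 9.83% (CCT7) to 14.8% (CCT5). In the RiboMinus library they ran from 6.49% (CCT3) to 23.4% (CCT5). In the unselected library they ran from 10.3% (CCT3) to 15.1% (CCT6). CCT5 was above an equal share in all 3 libraries, as was CCT6, and CCT3, CCT7 and CCT8 were below it in all 3. CCT8 was close to it in the unselected library, at 12.2%, and the shares were given no counting interval.

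The highest level was 1.51 times the lowest in the poly(A)-selected library (CCT5 over CCT7, interval 1.43 to 1.59) and 3.61 times in the RiboMinus library (CCT5 over CCT3, interval 3.24 to 4.02), against 1.46 times in the unselected library (CCT6 over CCT3, interval 1.38 to 1.55). The coefficient of variation over the 8 levels was 14.5%, 47.5% and 13.7% in that order of libraries. On the log2 scale the SD over the 8 levels was 0.21, 0.67 and 0.20, against 1.98, 1.88 and 1.89 over all ORFs kept. The levels of the subunits were therefore not equal within counting error in any library: the counting interval of the ratio excluded 1 for 25, 27 and 21 of the 28 pairs.

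The order of the levels differed between libraries. In the poly(A)-selected library it was CCT5, CCT4, CCT6, CCT2, CCT3, TCP1, CCT8 and CCT7. Counting error did not separate CCT5 from CCT4, CCT6 from CCT2 or CCT3 from TCP1. In the RiboMinus library it was CCT5, CCT6, TCP1, CCT2, CCT8, CCT7, CCT4 and CCT3, and of neighbours in that order CCT4 and CCT3 alone were not separated. In the unselected library it was CCT6, CCT5, TCP1, CCT4, CCT8, CCT2, CCT7 and CCT3. There CCT6 was not separated from CCT5, nor CCT7 from CCT3. Nor was TCP1 separated from CCT4, CCT4 from CCT8 or CCT8 from CCT2, while CCT2 was separated from CCT7. CCT5 was first or second everywhere, while CCT4 was second after poly(A) selection and seventh after RiboMinus treatment.

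Other complexes with fixed subunit numbers were set beside TRiC as a description. In the poly(A)-selected library the coefficient of variation was 14.5% for TRiC, against 27.9% for the 14 subunits of the 20S proteasome, 71.4% for the 7 subunits of the COPI coat and 32.3% for the 6 subunits of prefoldin. In the RiboMinus library it was 47.5% for TRiC, against 53.4% (20S proteasome), 50.8% (COPI) and 71.8% (prefoldin). In the unselected library it was 13.7% for TRiC, against 13.7% (20S proteasome), 21.6% (COPI) and 18.2% (prefoldin). TRiC had the lowest value of the 4 in the poly(A)-selected and RiboMinus libraries, and its ORFs are also the most alike in length of the 4. The part of coding length in these spreads was not tested. In the COPI coat, coding length runs from 567 nt (RET3) to 3603 nt (COP1). RET3 had 492 RPKM after poly(A) selection and 598 RPKM after RiboMinus treatment, against 255 RPKM in unselected RNA. COP1 had 122 and 356 RPKM in that order, against 331 RPKM in unselected RNA.

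**Figure D3:**
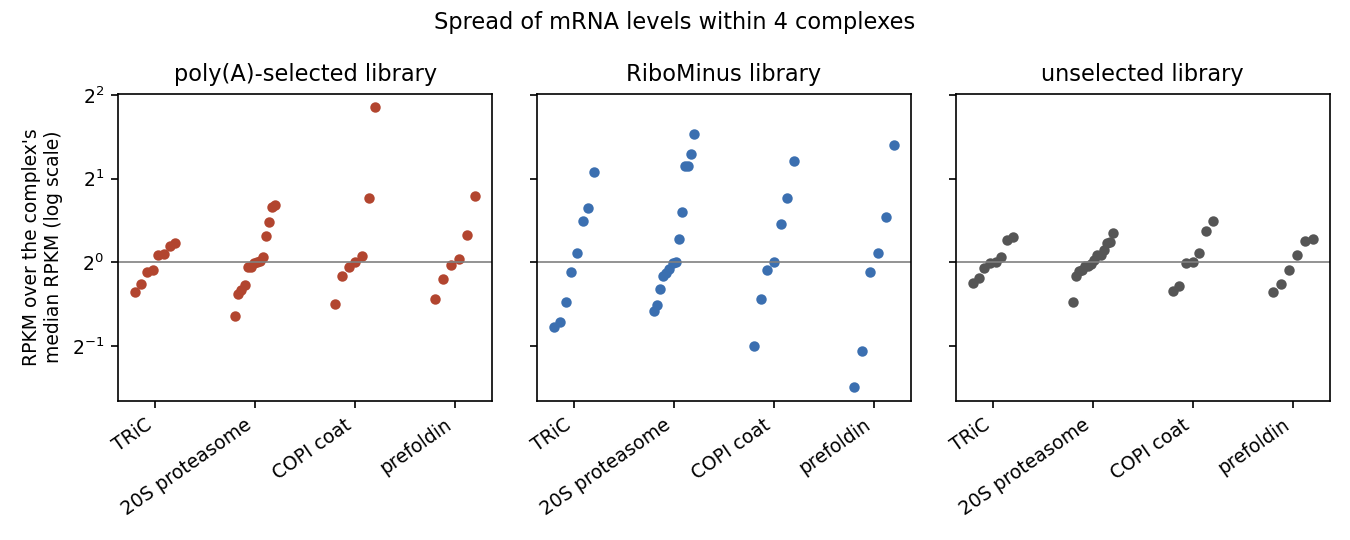
Level of each subunit mRNA divided by the median of its complex (log scale) in each library, for TRiC, the 20S proteasome, the COPI coat and prefoldin; each point is 1 gene. The TRiC points span 1.51-fold, 3.61-fold and 1.46-fold in the poly(A)-selected, RiboMinus and unselected libraries.

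The ratio of 2 libraries is given as the log2 ratio of RPKM plus 0.5, less its median over the 5199 ORFs with a mean RPKM of at least 1. All 8 subunits are among those ORFs. An ORF counts as called when the ratio passes 1.5-fold (0.58 on the log2 scale): this marks size alone and tests nothing.

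Setting poly(A)-selected beside unselected RNA asks whether oligo(dT) capture changes relative mRNA levels. Every subunit had a ratio below 0, and none of the 8 was called in either direction, against 20.4% of all ORFs called higher and 21.3% called lower. CCT8 had -0.55 (interval -0.64 to -0.47), CCT6 -0.51 (-0.58 to -0.43), TCP1 -0.49 (-0.57 to -0.41) and CCT7 -0.47 (-0.56 to -0.39). CCT5 was at -0.34 (-0.41 to -0.27). The smallest ratios were those of CCT2 at -0.16 (-0.24 to -0.07), CCT3 at -0.15 (-0.24 to -0.07) and CCT4 at -0.12 (-0.20 to -0.04). Without centring, CCT2, CCT3 and CCT4 had a higher RPKM after poly(A) selection and the other 5 a lower one. The shift removed was 0.238.

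In this comparison the ratio falls with coding length (Spearman's rho -0.76 over the 5199 ORFs kept), and the subunits are longer than the median ORF of 1248 nt. The subunits had a median ratio of -0.41 and an SD of 0.18. The 221 other ORFs kept with a coding length of 1581 to 1704 nt had a median of -0.22 and an SD of 0.37, and 13.1% of them were called lower and 1.81% higher. The 35 of those ORFs with a mean RPKM of 120 to 952, a range around that of the subunits, had a median of -0.42. With the trend in length removed the subunit ratios lay between -0.28 (CCT6 and CCT8) and 0.09 (CCT4). With the trend in mean expression removed instead, 4 of the 8 were called lower, against 21.1% of all ORFs under that setting.

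**Figure D4:**
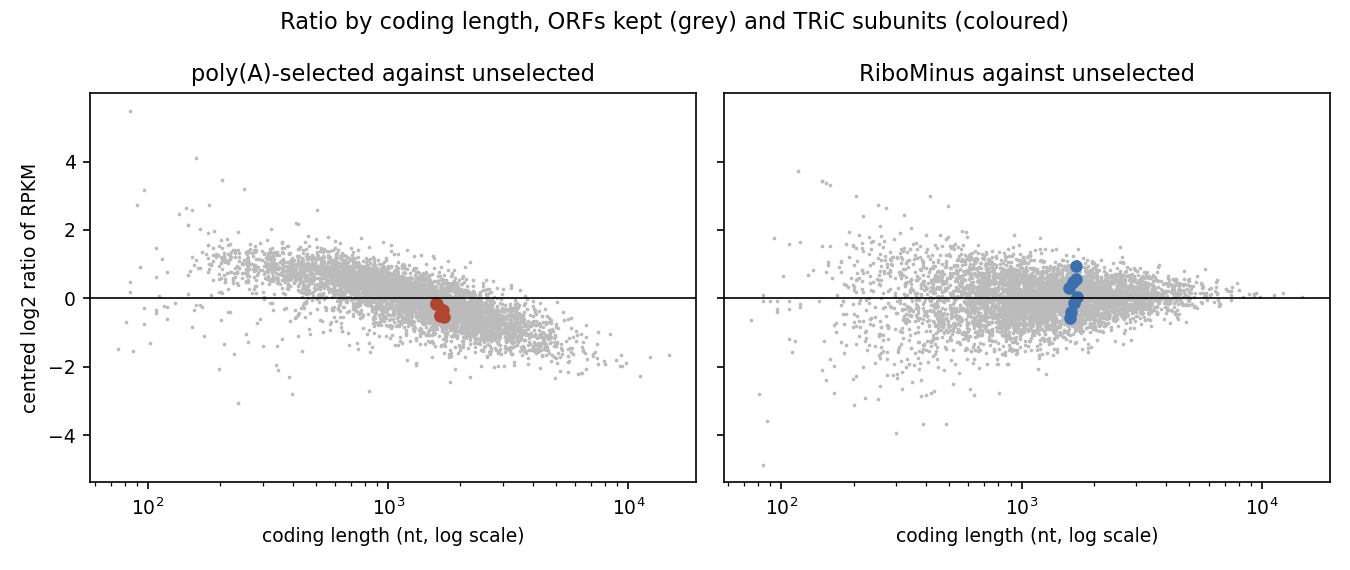
Centred log2 ratio of RPKM against coding length (log scale) for the ORFs kept, with the 8 subunits as large coloured points; the left panel compares the poly(A)-selected and the right panel the RiboMinus library with the unselected library. The subunits lie between -0.55 and -0.12 on the left and between -0.57 and 0.95 on the right, at nearly the same coding length.

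Setting RiboMinus-treated beside unselected RNA asks whether rRNA depletion changes relative mRNA levels. It uses the same unselected library as the comparison above. CCT5, with a ratio of 0.95 (interval 0.86 to 1.04), a 1.93-fold higher relative level, was the only subunit called: 1 of 8 called higher and 0 of 8 called lower, against 14.6% and 16.0% of all ORFs. TCP1 at 0.56 (0.46 to 0.67) and CCT4 at -0.57 (-0.72 to -0.42) were just short of the threshold on either side. CCT6 had 0.49 (0.39 to 0.59) and CCT2 0.31 (0.19 to 0.44), while CCT3 had -0.39 (-0.54 to -0.23). CCT7 at -0.14 (-0.28 to 0.00) and CCT8 at 0.04 (-0.08 to 0.16) were close to the median ORF. At a threshold of 2-fold no subunit was called, against 4.85% of all ORFs higher and 5.73% lower. With the GC trend removed, 3 of the 8 passed 1.5-fold on the higher side, against 14.9% of all ORFs. They were CCT5 at 1.02, CCT6 at 0.98 and CCT2 at 0.63. Under that setting 0 of the 8 passed on the lower side, against 11.7% of all ORFs.

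Subunits of like length thus went to opposite sides, with a median ratio of 0.18 and an SD of 0.51. The 221 other ORFs of that length had a median of -0.01 and an SD of 0.48, with 11.3% called higher and 10.9% lower, so the spread among the subunits was close to that among ORFs of their length. The 35 ORFs of like length and level had a median of -0.18 and an SD of 0.47. CCT5 stood at percentile 98.3 of the ORFs of that length and CCT4 at 10.9. Over the 5199 ORFs kept this ratio has a Spearman's rho of -0.38 with coding GC content. Among the subunits CCT6, with 48.0% GC, had 0.49, CCT4, with 42.0%, had -0.57, and CCT3 and CCT5, with 40.1% each, had -0.39 and 0.95. The part of base composition in these values was not tested.

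**Figure D5:**
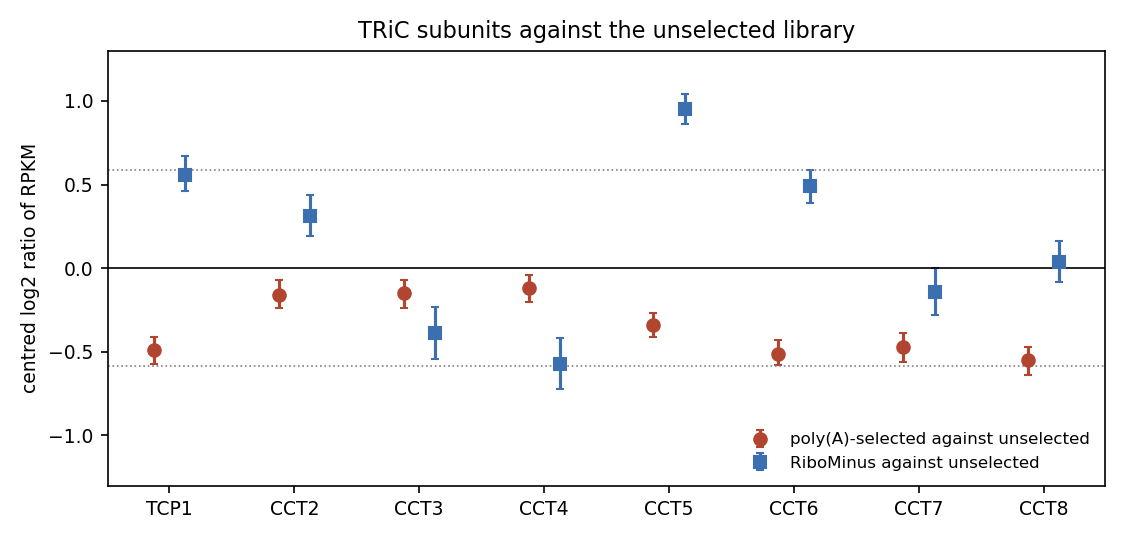
Centred log2 ratio of RPKM of each subunit in the poly(A)-selected (circles) and RiboMinus (squares) libraries against the unselected library; bars are 95% counting intervals, the solid line is the median ORF and the dotted lines mark 1.5-fold. All circles lie below 0, and the squares run from -0.57 (CCT4) to 0.95 (CCT5).

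Between the selected libraries, poly(A)-selected against RiboMinus, 3 of the 8 subunits were called lower and 0 higher, against 24.0% and 25.8% of all ORFs. CCT5 had -1.24 (interval -1.32 to -1.15), TCP1 -0.999 (-1.10 to -0.90) and CCT6 -0.95 (-1.04 to -0.85). CCT4, at 0.50 (0.35 to 0.64), and CCT3, at 0.29 (0.14 to 0.44), were on the other side. At 2-fold 1 subunit, CCT5, was called lower, against 10.8% of all ORFs, and TCP1 was just short of that threshold. With the GC trend removed, 5 of the 8 passed 1.5-fold on the lower side, against 22.1% of all ORFs. CCT4 passed 1.5-fold on the higher side without centring (0.61, with 29.7% of all ORFs called higher) and with the length trend removed (0.68, with 17.7%). Over the 5199 ORFs kept this ratio has a Spearman's rho of -0.62 with coding length and 0.37 with coding GC content. Of the 221 other ORFs of like length, 19.5% were called lower and 7.24% higher. The median over the subunits was -0.48 and the SD 0.61. Those 221 ORFs had a median of -0.18 and an SD of 0.52, and the 35 of like length and level -0.18 and 0.44.

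The partners of TRiC had levels of the same order as the subunits or below. The 6 prefoldin mRNAs, PAC10, GIM3, GIM4, GIM5, YKE2 and PFD1, had 197 to 464 RPKM after poly(A) selection and 61.0 to 451 RPKM after RiboMinus treatment, against 108 to 168 RPKM in unselected RNA. In the poly(A)-selected against the unselected library the TRiC subunits had a median ratio of -0.41 and prefoldin 0.83, and 5 of the 6 prefoldin genes were called higher, against 20.4% of all ORFs. Their coding lengths run from 327 to 597 nt, with a median of 364 nt, and of the 593 other ORFs of such lengths 65.1% were called higher, with a median ratio of 0.74. In the RiboMinus against the unselected library GIM4 was called higher at 1.35 and PAC10 lower at -1.15, where 23.4% of the 593 were called higher and 28.8% lower. The median TRiC mRNA had 285 RPKM and the median prefoldin mRNA 267 RPKM after poly(A) selection. These medians were 348 RPKM (TRiC) and 171 RPKM (prefoldin) after RiboMinus treatment, and 298 RPKM (TRiC) and 138 RPKM (prefoldin) in unselected RNA. The phosducin-like cofactor PLP2 had 188 RPKM after poly(A) selection and 142 RPKM after RiboMinus treatment, against 111 RPKM in unselected RNA. It was not called in the poly(A)-selected or RiboMinus library against the unselected library.

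Among clients, the actin mRNA ACT1 was the most abundant, with 1909 RPKM after poly(A) selection and 1406 RPKM after RiboMinus treatment, against 2731 RPKM in unselected RNA. Of the 8 client genes, ACT1 (-0.75), the beta-tubulin gene TUB2 (-0.89) and CDC55 (-0.75), a regulatory subunit of protein phosphatase 2A, were called lower in the poly(A)-selected against the unselected library, and none was called higher. That is 3 of 8 lower, against 21.3% of all ORFs. In the RiboMinus against the unselected library ACT1 was called lower at -1.03 and no other client was called, against 16.0% of all ORFs called lower. TUB2 had 313 and 369.8 RPKM after poly(A) selection and RiboMinus treatment, against 493 in the unselected library. The alpha-tubulin genes had 314 and 349.7 RPKM against 361 (TUB1), and 213 and 177 against 218 (TUB3). Of their 30-base stretches, 0.228% (TUB1) and 0.229% (TUB3) are shared with another listed ORF. TUB4, the gamma-tubulin gene, and CDC20 and CDH1, the activators of the anaphase-promoting complex, had 25.9 to 58.8 RPKM over the 3 libraries. The mitochondrial chaperonin mRNA HSP60, of similar coding length to the TRiC ORFs at 1716 nt, had 856 and 788 RPKM after poly(A) selection and RiboMinus treatment, against 1149.6 in the unselected library, with ratios of -0.66 and -0.62. Its cochaperonin mRNA HSP10, with a coding length of 318 nt, had ratios of 1.21 and -0.99.

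The ORFs whose levels were most like the mean of the subunits over the 3 libraries were found by the root mean square distance on the log2 scale. They were PRT1, a subunit of the initiation factor eIF3, at 0.076, RPN2 and RPT1, subunits of the proteasome regulatory particle, at 0.095 and 0.106, the copper transporter gene CTR1 at 0.115 and ZWF1, glucose-6-phosphate dehydrogenase, at 0.122. PRT1 had 257 and 344 RPKM after poly(A) selection and RiboMinus treatment, against 302 in the unselected library. The subunits themselves lay between 0.091 (CCT2) and 0.637 (CCT5) from their own mean, and 268 other ORFs were no farther than CCT5. With 3 values a gene, this is a likeness of level more than of pattern.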

How the data were processed

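RNA-seq from 3 libraries, 1 per preparation, was used. The authors deposited RPKM values, to 2 decimals, for 5293 ORFs. The submitters' processing notes name Bowtie2, TopHat2 and the build sacCer3. Tool roles, versions and the read counter were not given in the sources used here. Members and lists were chosen with earlier results of these data known, and the motifs during the analysis. ORF names were matched to the RefSeq R64 annotation (203 after restoring a hyphen). The values of 2 columns that belong to no sample given here were left out. RPKM times coding length without the stop codon fell on whole multiples of 1 step, which gave reads per ORF and the total in listed ORFs. Of values under 100 reads, 99.1% (poly(A)-selected), 99.9% (RiboMinus) and 99.9% (unselected) lay within 0.1 of a whole number. A count of 0 allows 3 reads, or 0.464, 2.28 and 0.674 RPKM at 1 kb. Reads carry no molecular identifiers, so intervals cover counting error only. The filter on mean RPKM removed 94 ORFs and no subunit. Named genes are all subunits, the partner and client lists (1 partner is not reported here), highest and lowest members of the other complexes, and the 5 ORFs nearest in level. Proteins were translated from R64 and aligned globally with Biopython 1.88 (BLOSUM62, gap penalties 11 and 1). Depth recovery and ratios were tested on simulated data. Python 3.11.15, NumPy 2.4.6 and SciPy 1.17.1 were used.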

Additional observations from a re-analysis of the deposited data

How the results depend on the processing

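The counts called, medians and highest-over-lowest values were recomputed 57 times under other settings: 35 stayed close and 22 moved, and no called subunit changed sign. For poly(A)-selected against unselected, the median moved to -0.17 without centring, to -0.16 with the trend in coding length removed and to -0.59 with the trend in mean expression removed. None was called at first. With the GC trend removed 1 was called lower, against 20.6% of all ORFs, and with the expression trend removed 4, against 21.1%. For RiboMinus against unselected, the median was 0.25 without centring, 0.37 with the GC trend removed and 0.25 with the expression trend removed. In that comparison 2 were called higher without centring and with the length trend removed, against 17.9% and 15.1% of all ORFs. With the GC or the expression trend removed 3 were called higher, against 14.9% under each. At 2-fold 0 were called, against 4.85% of all ORFs higher and 5.73% lower. For poly(A)-selected against RiboMinus, the median was -0.37 without centring, and -0.28, -0.73 and -0.63 with the length, GC and expression trends removed. There 5 were called lower with the GC trend removed and 1 at 2-fold, against 22.1% and 10.8% of all ORFs. Removing the expression trend gave 4 called, all lower, against 23.0%. Without centring and with the length trend removed 4 were called, 3 lower (against 19.8% and 18.5%) and CCT4 higher (against 29.7% and 17.7%). With RPKM corrected for coding length, highest over lowest stayed close, at 1.49 (poly(A)-selected), 3.50 (RiboMinus) and 1.39 (unselected). Without the most and the least abundant subunit, highest over lowest was 1.36 (poly(A)-selected), 2.56 (RiboMinus) and 1.37 (unselected), since that setting removes the extremes. The cause of the other shifts was not tested. The pseudocount and the filter on low values moved none of these values beyond their tolerance. No paired analysis was possible because each preparation has 1 library, so no value has a replicate error. The RiboMinus library, the shallowest, gave the subunits the fewest reads and the widest intervals.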
